A study of Mus musculus with 2 samples.

Results

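Blood coagulation and complement are cascades of plasma proteins, most of which are made in hepatocytes and secreted as inactive precursors. In coagulation, proteases activate each other in turn until thrombin cuts fibrinogen into fibrin, while protein C, protein S and plasmin limit or dissolve the clot. In complement, the classical, lectin and alternative pathways meet at C3, and the terminal components then build a pore in the target membrane. Several complement genes are also active outside the liver, in macrophages and in adipose tissue, where adipocytes secrete factor D and C3.

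The group described here holds 38 genes, a list of mouse clotting factors, fibrinogen chains, contact and anticoagulant proteins, classical, lectin and alternative pathway proteins, terminal components and 2 complement regulators. They were found on the arrays by matching each probe's RefSeq transcript to a gene symbol. All 38 had a probe. They took 49 of the 39429 probes, and 20884 genes had a probe in all. Of the 38, 28 rested on 1 probe, 9 on 2 and 1 (Masp2) on 3.

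The study hybridised RNA of wild-type male C57BL/6J mice to 2 arrays with 2 colours each, 1 array for liver and 1 for adipose tissue. The high-fat pool came from mice given a high-fat diet for 4 weeks and was labelled with Cy5, and the normal-diet pool came from mice on a normal diet and was labelled with Cy3. RNA of 10 livers and of 10 adipose tissues was pooled by diet before labelling, and the labels do not settle whether 10 stands for each diet or for both together, nor which fat depot was taken. Each ratio therefore compares 1 pool with 1 pool. There was no replicate and no dye swap, so no test across animals could be made, and diet cannot be told apart from dye or from the pool.

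A ratio is given as log2 of the high-fat over the normal-diet pool, with the scanner software's own error of it, which covers the measurement of a spot and not the animals. Levels are log2 intensities of each channel after the arrays were scaled to each other, and they are read within a gene only. A gene counted as measured where a probe was well above background in both channels (13640 genes in liver, 14315 in adipose tissue), and as higher or lower where the pools differed by at least 2-fold. By this rule 67 liver genes (0.491%) were higher and 79 (0.579%) lower in the high-fat pool. In adipose tissue 605 genes (4.23%) were higher and 735 (5.13%) lower. These splits depend on the loess normalization within arrays. With median centring in its place the median of all genes became 0.32 in liver and 0.69 in adipose tissue, with 445 liver genes higher and 28 lower, and 4208 adipose genes higher and 616 lower. The tissue labels were checked with marker genes on the normal-diet channels. All 12 adipocyte markers had a higher level on the adipose array, and 25 of 27 hepatocyte markers had a higher level on the liver array.

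In the adipose tissue of mice on the high-fat diet, many of the plasma protein genes were far lower than on the normal diet, while in the liver none of the 38 genes differed by 2-fold. Of the 33 members measured in adipose tissue, 17 were lower and 0 higher, against 5.13% and 4.23% of all measured genes. All 17 exceeded 2 times the scanner error, and 28 of the 33 ratios lay below 0. The median of the 33 was -1.10, beside -0.01 for all measured genes, with a range of -5.32 (Fgg) to 0.47 (Cfb). A further 4 members, F13b, C8a, C8b and Mbl1, were well above background in the normal-diet channel only. The folds given for them are readings against a signal not well above background, and no firm bounds. Masp1 was above background in neither. In liver all 38 were measured, with 0 higher and 0 lower, beside 0.491% and 0.579% of all measured liver genes. This count is near the share of all genes and does not set the members apart. The liver median of the members was 0.10, beside 0.01 for all genes. The liver range ran from -0.51 (Fga) to 0.56 (C3), with 25 ratios above 0 and 13 below. With median centring 16 members were lower in adipose tissue, 3 (C1qa, Cfb and Pros1) became higher there, and 4 (C3, C4b, C8b and Kng1) became higher in liver. The plot of ratios by tissue sets these values side by side.

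**Figure D1:**
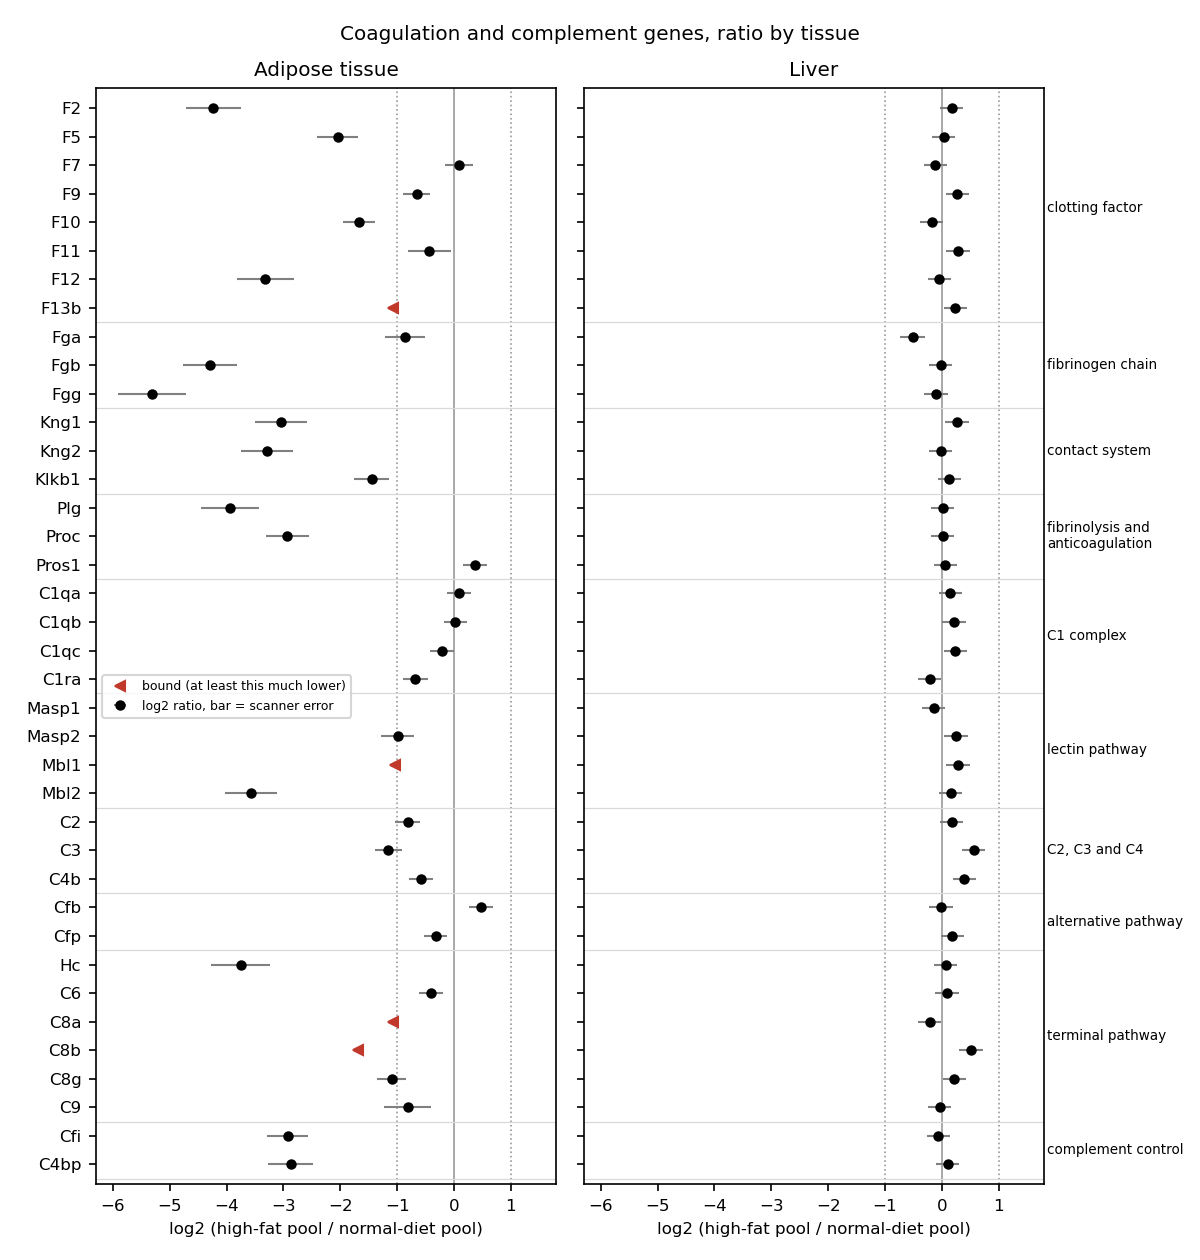
Log2 ratio of the high-fat over the normal-diet pool for each of the 38 genes in adipose tissue and in liver, ordered by role. Points are gene means over probes, bars the scanner's error, and dotted lines mark 2-fold. Triangles, named bounds in the legend, are readings of genes not well above background in the high-fat channel and are not firm limits. Adipose ratios spread from -5.32 to 0.47, whereas liver ratios stay between -0.51 and 0.56. Masp1 has no adipose point.

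The fibrinogen chains, which assemble as pairs of alpha, beta and gamma chains into the clot's precursor, held the largest adipose differences. Fgg, the gamma chain, had an adipose level of 7.01 in the high-fat pool, against 12.33 in the normal-diet pool, which is 39.8-fold lower (log2 ratio -5.32, scanner error 0.60). Fgb, the beta chain, stood at 8.24 in the high-fat pool, against 12.53 in the normal-diet pool, 19.6-fold lower (ratio -4.29, error 0.48). Both probes were well above background in the high-fat pool too. The lowest level of any such probe there was 5.66, but this is no detection limit: C8b, at 5.94, was not well above background. Fga, the alpha chain, was dim in adipose tissue under both diets. Its measured probe was at 6.20 in the high-fat pool, against 7.07 in the normal-diet pool (ratio -0.86, error 0.36). The other Fga probe gave -1.85 but was above background only in the normal-diet channel, and Fga became lower under 5 of the 9 alternatives (the dim-probe filters, median centring, the smaller offset and the software's own ratio). In liver, Fgg was at 16.87 in the high-fat pool, against 16.97 in the normal-diet pool (ratio -0.10), and Fgb at 16.64, against 16.66 (ratio -0.02). Hepatic Fga had the lowest liver ratio of the group (-0.51, error 0.21), but its probes gave -0.89 and -0.14, and median centring brought the mean to 0.02.

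The 3 fibrinogen genes lie together on mouse chromosome 3, and their promoters are shown because Fgg and Fgb were the most reduced members in adipose tissue. Sequences are RefSeq's for build GRCm38.p6, 250 bases before to 50 after the annotated start, written 5′ to 3′ on the gene's strand: chr3:83025903-83026202 (+) for Fga, chr3:83049814-83050113 (-) for Fgb and chr3:83007474-83007773 (+) for Fgg. Capitals mark GTTAAT, a half-site of the hepatocyte factor HNF1, TTGCNNAA, the core of C/EBP sites, and CTGGGAA, the STAT3-type element of acute phase genes, each searched on both strands. None of the marked matches overlap.
Fga: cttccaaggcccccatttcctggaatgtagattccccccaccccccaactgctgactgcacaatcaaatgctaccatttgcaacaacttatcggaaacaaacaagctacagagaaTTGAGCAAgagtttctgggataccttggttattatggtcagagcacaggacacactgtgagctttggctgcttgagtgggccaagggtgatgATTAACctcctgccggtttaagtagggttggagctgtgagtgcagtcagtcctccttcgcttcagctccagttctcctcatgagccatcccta
Fgb: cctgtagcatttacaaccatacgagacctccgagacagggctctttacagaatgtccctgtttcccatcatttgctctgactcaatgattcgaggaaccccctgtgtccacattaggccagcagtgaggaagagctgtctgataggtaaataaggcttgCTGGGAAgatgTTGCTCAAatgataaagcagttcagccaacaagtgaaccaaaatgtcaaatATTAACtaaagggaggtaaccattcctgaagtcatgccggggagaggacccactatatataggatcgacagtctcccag
Fgg: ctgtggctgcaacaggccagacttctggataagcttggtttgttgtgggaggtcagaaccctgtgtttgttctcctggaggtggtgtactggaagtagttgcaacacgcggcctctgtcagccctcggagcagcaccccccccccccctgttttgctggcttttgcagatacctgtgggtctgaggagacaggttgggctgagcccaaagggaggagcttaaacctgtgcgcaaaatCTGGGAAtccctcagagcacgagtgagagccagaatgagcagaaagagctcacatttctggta

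Fgb held all 3 motifs, with CTGGGAA starting at base -91 from the annotated start, the C/EBP core at -80 and the HNF1 half-site at -29. Fga held the C/EBP core at -135 and the HNF1 half-site at -43. Fgg held only CTGGGAA, at -13. RefSeq promoters were at hand for 29 of the 38 members. The HNF1 half-site was in 10 of the 29 (34.5%), beside 7.10% of all 32851 mouse promoters of that length. The C/EBP core was in 9 (31.0%, beside 10.8%), CTGGGAA in 7 (24.1%, beside 11.1%) and the TATA box letters TATAAA in 3 (10.3%, beside 13.6%). These are matches of letters and do not show binding.

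Among the clotting factors, 4 of the 7 measured in adipose tissue were lower. F2, which encodes prothrombin, the zymogen that becomes thrombin, was at 7.52 in the high-fat pool, against 11.75 in the normal-diet pool, 18.9-fold lower (ratio -4.24, error 0.49). F12, which starts the contact pathway, was at 5.91, against 9.23 in the normal-diet pool, 9.97-fold lower (ratio -3.32, error 0.51). The size is uncertain, since the F12 ratio ran from -4.86 to -2.98 over the 9 alternatives. Its high-fat level was also below that of C8b (5.94), which was not well above background. F5, the cofactor of factor X, was lower by its 1 measured probe, at 6.41 in the high-fat pool, against 8.45 in the normal-diet pool (ratio -2.05, error 0.36). The remaining proteases were dim under both diets and not called. F9, whose product activates factor X, was at 7.09 in the high-fat pool, against 7.74 in the normal-diet pool (ratio -0.65). F11 was at 6.33, against 6.76 (ratio -0.43), and F7, the protease that works with tissue factor, at 7.05, against 6.96 (ratio 0.08). F13b, the carrier subunit of factor XIII, which crosslinks fibrin, read 2.10-fold lower (scanner error 0.66). That reading is no firm bound, since its high-fat signal was not well above background on the 8 spots used.

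F10, the protease that converts prothrombin, was the fourth of these lower genes, at a mean ratio of -1.67 (error 0.28), but its 2 probes did not behave alike. The probe for transcript NM_007972 was at 7.51 in the high-fat adipose pool, against 9.83 in the normal-diet pool (ratio -2.32). The probe for NM_001242368 was at 16.28, against 17.30 (ratio -1.02). On the normal-diet channels the first probe was 5.65 log2 units higher on the liver array than on the adipose array, as for other clotting factors, whereas the second was 3.48 log2 units higher on the adipose array. In liver the first gave a ratio of -0.01 and the second -0.35. The second probe is therefore a bright adipose signal that the first does not share, and the F10 value averages 2 unlike readings. With median centring the mean was -0.68, which ends the call.

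In liver no clotting factor differed by 2-fold, and the 8 ratios ran from -0.18 (F10) to 0.28 (F11). Liver F2 was at 16.34 in the high-fat pool, against 16.16 in the normal-diet pool (ratio 0.17), and F12 at 15.13, against 15.17 (ratio -0.04). F9 was at 12.30, against 12.03 (ratio 0.27), F5 at 12.95, against 12.92 (0.04), and F7 at 11.45, against 11.56 (-0.11). The median scanner error over all liver genes was 0.21, and no clotting factor exceeded 2 times its own error. F13b, read on 10 spots of 1 probe, gave 0.24 with an SD of 0.02 among spots, which is the repeatability of the spots on 1 array and says nothing about animals.

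**Figure D2:**
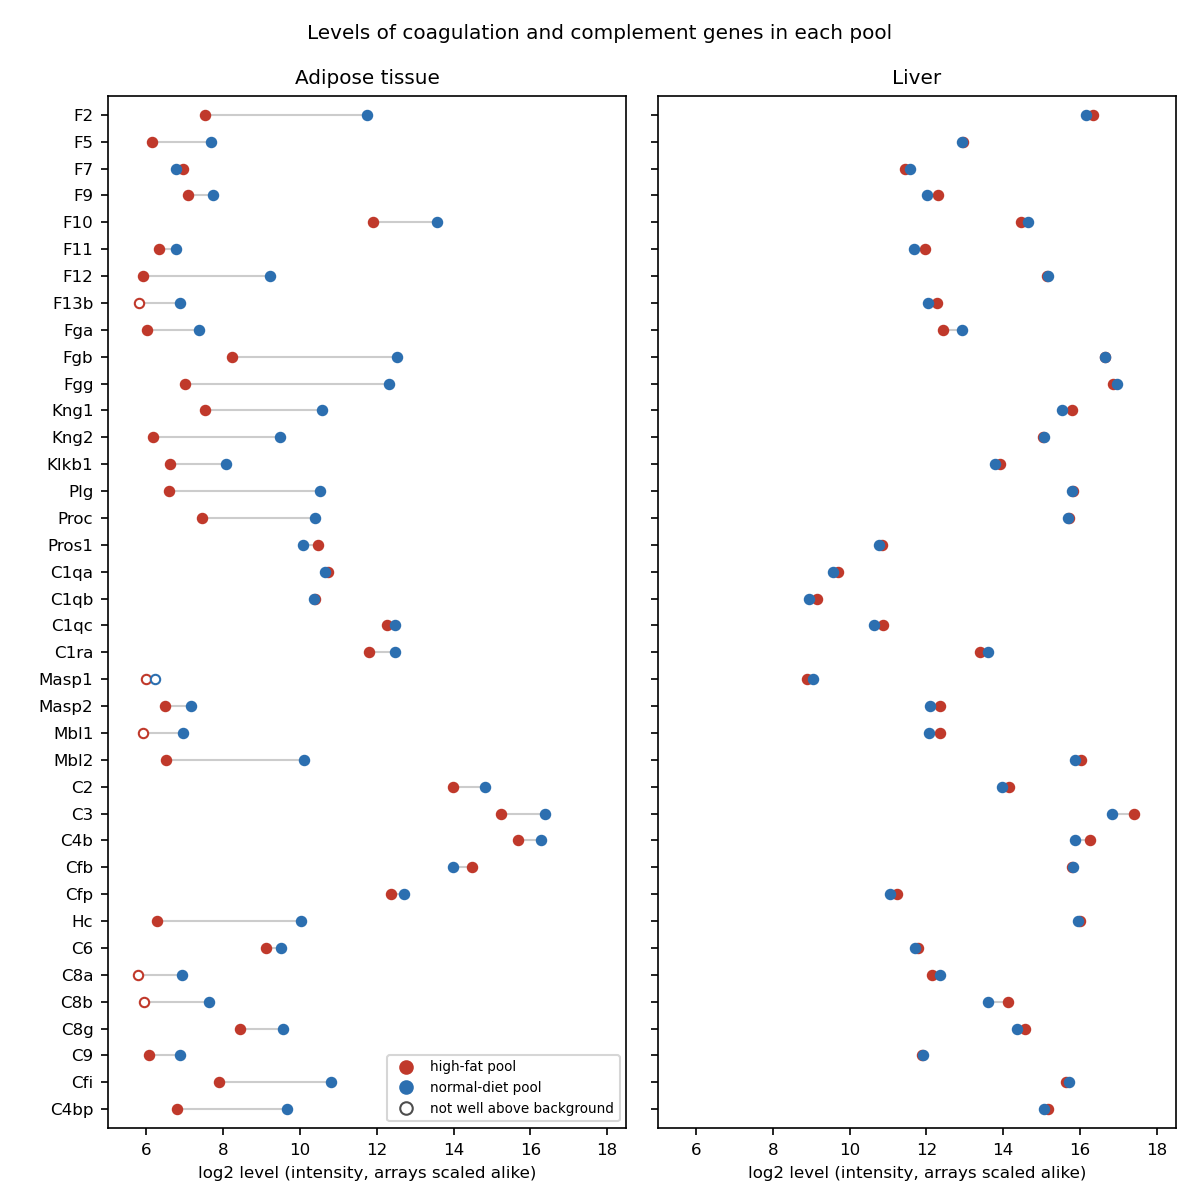
Log2 level of each gene in the high-fat and the normal-diet pool, in adipose tissue and in liver, averaged over all probes of the gene, with open circles where no probe was well above background in that channel. Levels can be read between the pools of 1 gene but not between genes. In adipose tissue Fgg is at 7.01 in the high-fat pool and 12.33 in the normal-diet pool, whereas the liver pairs lie close together.

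All 3 contact system genes were lower in adipose tissue. Kng2, a kininogen, was at 6.18 in the high-fat pool, against 9.47 in the normal-diet pool, 9.77-fold lower (ratio -3.29). Over the 9 alternatives the Kng2 ratio ran from -4.37 to -2.83. Kng1, the neighbouring kininogen and source of bradykinin, had probes at -3.77 and -2.30 (mean -3.04, 8.20-fold lower). Klkb1, plasma prekallikrein, which cuts kininogen, was at 6.63, against 8.07 (ratio -1.45, error 0.31). Kng1 and Kng2 are close copies, so their probes may share transcripts. In liver Kng2 and Klkb1 gave -0.02 and 0.14, and the Kng1 probes 0.50 and 0.04.

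Of the fibrinolytic and anticoagulant genes, 2 of 3 were lower. Plg, whose product plasmin dissolves fibrin, was at 6.58 in the high-fat adipose pool, against 10.52 in the normal-diet pool, 15.3-fold lower (ratio -3.94, error 0.51). Proc, protein C, was at 7.45, against 10.38 (ratio -2.93, 7.62-fold lower). Pros1, protein S, its cofactor, went the other way without reaching 2-fold, at 10.46 in the high-fat pool, against 10.09 in the normal-diet pool (ratio 0.37, error 0.21). Unlike protein C, protein S is known to be made in many tissues, and the normal-diet level of Pros1 was only 0.68 log2 units higher on the liver array than on the adipose array. In liver the 3 ratios were 0.02 (Plg), 0.02 (Proc) and 0.07 (Pros1).

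None of the 4 genes of the C1 complex, which opens the classical pathway, was called in adipose tissue. C1qa, C1qb and C1qc encode the chains of C1q, a product of macrophages, and lie together on chromosome 4. C1qa was at 10.74 in the high-fat adipose pool, against 10.65 in the normal-diet pool (ratio 0.09), and C1qb at 10.39, against 10.37 (ratio 0.02). C1qc was at 12.27, against 12.48 (ratio -0.21, SD 0.03 over 10 spots). With loess none of the 3 chains differed by more than 0.21 log2 units between the pools. Over the 9 alternatives their ratios reached 1.05 (C1qa), 0.96 (C1qb) and 0.85 (C1qc). With median centring C1qa became higher and C1qc turned its sign. All 3 chains had higher normal-diet levels on the adipose than on the liver array. The 14 measured macrophage markers had an adipose median of 0.15, with 1 higher (Ctss, a lysosomal protease, 1.08) and 0 lower. C1ra, the protease that C1q activates, was at 11.80 in the high-fat pool, against 12.48 in the normal-diet pool (ratio -0.68, with probes at -0.88 and -0.47). In liver the C1q chains gave 0.15 (C1qa), 0.22 (C1qb) and 0.24 (C1qc), and C1ra -0.21.

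The C1qb promoter is shown as the macrophage counterpart of the fibrinogen promoters (GRCm38.p6, chr4:136886151-136886450, minus strand). Its capitals mark GAGGAA, the core recognised by PU.1, a factor of the myeloid lineage.
C1qb: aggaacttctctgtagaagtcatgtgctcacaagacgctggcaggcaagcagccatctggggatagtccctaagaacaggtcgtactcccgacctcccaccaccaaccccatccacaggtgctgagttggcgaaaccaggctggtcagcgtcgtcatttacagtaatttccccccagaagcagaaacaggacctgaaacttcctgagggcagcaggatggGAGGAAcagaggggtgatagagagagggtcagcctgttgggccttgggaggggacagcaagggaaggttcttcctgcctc

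The core starts at base -30, and neither the HNF1 half-site nor the C/EBP core was found in this window. GAGGAA was in 6 of the 29 member promoters (20.7%), beside 28.3% of all promoters, so it is a common string. It also occurs at 2 places in the Fgb promoter, where it is left in lower case.

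In the lectin pathway, Mbl2, a mannose-binding lectin of plasma, was at 6.52 in the high-fat adipose pool, against 10.10 in the normal-diet pool, 11.9-fold lower (ratio -3.57, error 0.45). Mbl1 read 2.06-fold lower, against a high-fat signal not well above background. Masp2, the protease bound to these lectins, had a ratio of -0.99, just inside the 2-fold line, from probes at -1.04 and -0.94. Masp1 was not well above background in either pool. In liver Mbl1 and Mbl2 gave 0.28 and 0.16, Masp1 -0.14, and the 3 Masp2 probes 0.04, 0.23 and 0.48.

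C3, on which the pathways converge, was the only member whose ratios pointed in opposite directions beyond 2 times the scanner error. In adipose tissue C3 was at 15.22 in the high-fat pool, against 16.38 in the normal-diet pool, 2.22-fold lower (ratio -1.15, error 0.23). Its probe with 10 spots was at 15.88 in the high-fat pool, against 16.88 in the normal-diet pool (SD of the ratio among spots 0.03), and the other probe gave a ratio of -1.30. In liver C3 was at 17.41 in the high-fat pool, against 16.84 in the normal-diet pool (ratio 0.56, error 0.20), with probes at 0.73 (SD 0.02 over 9 spots) and 0.40. The adipose sign depended on the normalization, turning with median centring only, while the liver ratio stayed above 0 under every alternative. With median centring the adipose ratio was 0.0753 and the liver ratio 1.45, while the software's own ratio gave -1.16 and 0.11. The normal-diet level of C3 was only 0.47 log2 units higher on the liver array than on the adipose array, whereas Fgb and Fgg were 4.13 and 4.64 higher. C4b, the classical pathway partner of C2, gave -0.58 in adipose tissue (15.68 in the high-fat pool, against 16.26 in the normal-diet pool) and 0.39 in liver. C2 gave -0.82 (13.99 in the high-fat pool, against 14.80 in the normal-diet pool) and 0.18. With median centring the adipose ratios of C4b and C2 also turned, to 0.66 and 0.34. C4a, a near-identical copy of C4b, had no probe of its own here, so the C4b probe may read both. The difference between tissues was not tested.

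The C3 promoter is shown because C3 is the member with opposite signs (GRCm38.p6, chr17:57228087-57228386, minus strand). Its capitals mark the C/EBP core, which starts at base -45 from the annotated start.
C3: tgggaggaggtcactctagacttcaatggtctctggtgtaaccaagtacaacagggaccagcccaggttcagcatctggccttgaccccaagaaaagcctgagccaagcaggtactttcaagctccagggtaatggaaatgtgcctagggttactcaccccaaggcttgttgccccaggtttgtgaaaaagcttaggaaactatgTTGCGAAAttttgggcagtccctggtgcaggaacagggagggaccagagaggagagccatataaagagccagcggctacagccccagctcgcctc

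Neither the HNF1 half-site nor CTGGGAA was found in this window. The letters TATAAA begin at base 15, after the annotated start, and are left in lower case.

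The alternative pathway held the highest adipose ratio. Cfb, factor B, the protease of the alternative C3 convertase, was at 14.47 in the high-fat pool, against 13.99 in the normal-diet pool (ratio 0.47, error 0.21), short of 2-fold. Cfb lies beside C2 on chromosome 17 and encodes its close relative, and the neighbours had ratios of 0.47 and -0.82. Cfp, properdin, a stabiliser of the convertase made by myeloid cells, was at 12.38, against 12.70 (ratio -0.32). In liver Cfb gave -0.01 and Cfp 0.18.

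The terminal components were mixed. Hc, which encodes C5, was at 6.27 in the high-fat adipose pool, against 10.02 in the normal-diet pool, 13.5-fold lower (ratio -3.75, error 0.52). Over the 9 alternatives the Hc ratio ran from -5.04 to -3.18. C8g, the lipocalin chain of C8, was lower at -1.10, but its probes disagreed, at -1.89 and -0.31, and with median centring the call ended at -0.51. C8a and C8b, the pore-forming chains, read 2.11-fold and 3.24-fold lower, against high-fat signals not well above background. The C8a value includes a probe that was above background in neither channel. C6 was at 9.12 in the high-fat pool, against 9.52 in the normal-diet pool (ratio -0.40), and C9, the pore's main subunit, at 6.06, against 6.87 (ratio -0.81, error 0.41). In liver C8b had the second highest ratio of the group, with 14.12 in the high-fat pool, against 13.60 in the normal-diet pool (0.52, error 0.21, 1 probe). The other liver ratios were 0.07 (Hc), 0.09 (C6), -0.22 (C8a), 0.22 (C8g) and -0.03 (C9).

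Both regulators were lower in adipose tissue. Cfi, factor I, the protease that inactivates C3b and C4b, was at 7.88 in the high-fat pool, against 10.81 in the normal-diet pool, 7.60-fold lower (ratio -2.93, error 0.37). C4bp, its cofactor for C4b, was at 6.79, against 9.67, 7.34-fold lower (ratio -2.88, error 0.39). In liver they gave -0.06 and 0.11.

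Among the members, the adipose ratios differed between genes far higher on the liver array and genes at like levels on both arrays. This grouping was chosen after the values were seen and is given as a description. For 25 members the normal-diet level was 4.13 to 5.96 log2 units higher on the liver array than on the adipose array (median 5.17). Of these, 21 were measured in adipose tissue and 15 were lower, with ratios of -1.10 to -5.32. The other 6 (F7, F9, F11, Fga, C9 and Masp2) had normal-diet adipose levels of 6.76 to 7.74 and ratios of -0.99 to 0.08. The median of the 21 was -2.93, and in the high-fat pool they lay at 5.91 to 8.45. Among the 21 the ratio did not simply follow the difference between arrays. Fgb, at 4.13, had -4.29, and the measured Fga probe, at 5.07, had -0.86, though Fga was dim in both adipose pools. Lower ratios went with higher normal-diet adipose levels (Spearman correlation -0.87), a link partly built in, since that level is part of the ratio. For 11 members the arrays differed by at most 2.18 log2 units in either direction: Pros1, C1qa, C1qb, C1qc, C1ra, C2, C3, C4b, C6, Cfb and Cfp. Of these 11, 1 was lower (C3) and 10 were not called, with a median of -0.32. Of all measured adipose genes 5.13% were lower, so the count in this class is not unusual. The C3 call also ended with median centring (0.0753). Masp1 lay between, at 2.83, and F10 was placed in neither class, since 1 of its probes was far higher on the liver array and the other on the adipose array. The HNF1 half-site was in 8 of the 21 promoters at hand for the 25 genes and in 2 of the 7 for the 11. The hepatocyte markers did not all follow this split. Serpina1c and Apoa2, only 0.02 and 1.56 log2 units higher on the liver array, had adipose ratios of -4.02 and -3.16. Otc and Hnf4a, 5.22 and 3.70 units higher there, had 0.73 and 1.90. Others went with the split, such as Apoh (4.38, ratio -4.77) and Hp (0.17, ratio 0.44). Each tissue has an array of its own, so tissue and array cannot be told apart in these differences.

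**Figure D3:**
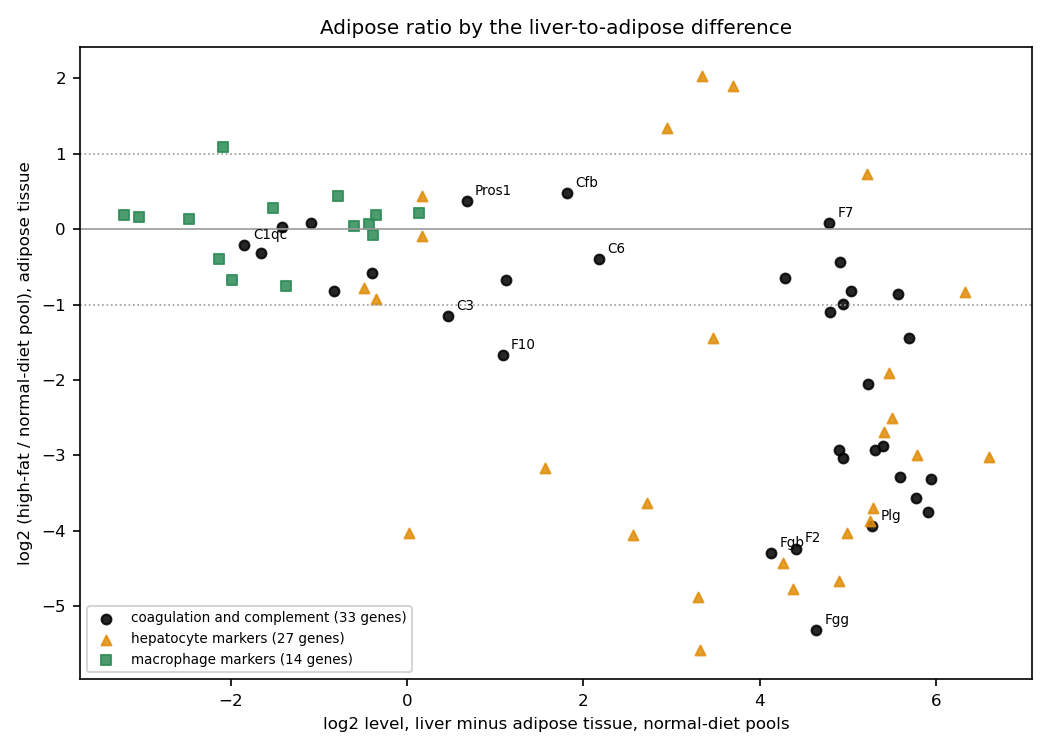
Adipose log2 ratio (high-fat over normal-diet pool) against the difference in log2 level between liver and adipose tissue on the normal-diet channels, for the 33 measured members, 27 hepatocyte markers and 14 macrophage markers, 1 point per gene. Members far higher on the liver array reach -5.32, while the 11 members at like levels on both arrays stay between -1.15 and 0.47. F10 (-1.67) is drawn at the mean of 2 unlike probes.

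Markers of other organs moved in the same adipose comparison. Of 27 hepatocyte markers, all well above background in both pools, 18 were lower and 3 higher, with a median of -3.00. The lowest were Ambp (-5.59), Serpina3k (-4.88) and Apoh (-4.77), all plasma proteins of the liver. The summed level of the 27 on the log2 scale was 18.8 in the high-fat pool, against 19.5 in the normal-diet pool. This sum adds different probes, and genes bright in both pools weigh most in it, such as Hp, haptoglobin (17.07 in the high-fat pool, against 16.63 in the normal-diet pool). Among the higher ones were Hnf4a (1.90), a transcription factor also known from intestinal epithelium, and Slc10a1 (1.35), a bile acid transporter. All 14 small intestine markers were higher, with a median of 3.80, led by Fabp2 (6.42), Sis (5.76) and Clca1 (5.46). Their summed log2 level was 18.9 in the high-fat pool, against 14.0 in the normal-diet pool. Of the measured pancreas markers 9 of 10 were lower, of the male reproductive tract markers 5 of 5, and of the skeletal muscle markers 5 of 7. The part of these tissues in the members' ratios was not tested. In such bulk RNA, fewer cells of a type and less RNA per cell cannot be told apart.

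The remaining marker lists had adipose medians nearer 0. The 12 adipocyte markers had a median of 0.26, with 1 higher (Lep, leptin, 1.66) and 1 lower (Cfd, adipsin, -1.70). The medians were -0.05 for 6 Kupffer cell markers, 0.14 for 8 endothelial, -0.30 for 11 fibroblast and mesothelial and -0.28 for 4 platelet markers. In liver the hepatocyte markers had a median of 0.41, with 2 higher (Apoa2 and Cyp2e1, 1.14 each) and 0 lower, and the 14 macrophage markers a median of 0.10 with none called. There 8 of 9 skeletal muscle markers were lower (median -1.48), as were Marco of the Kupffer cell list (-1.28) and Slc2a4 of the adipocyte list (-1.07).

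The rest of both pathways was read from lists of further genes. Of 33 other coagulation genes 26 were measured in adipose tissue, with 0 higher and 8 lower (median -0.16). The lower ones were mainly inhibitors made in the liver, namely Serpinc1, antithrombin (-4.93), Pzp, an alpha-2-macroglobulin relative (-4.85), Serpind1, heparin cofactor 2 (-3.28), Serpinf2, the plasmin inhibitor (-3.06), and Serpina10 (-1.59). Hrg (-3.01), Cpb2, which protects fibrin from plasmin (-2.13), and Gas6, a relative of protein S (-1.23), completed them. Among the vessel wall and receptor genes of the list, none of these was called: Vwf gave -0.06, F3, tissue factor, -0.15, Thbd, thrombomodulin, -0.88, and F2r, the thrombin receptor, 0.82. In liver 25 were measured, with 0 lower and a median of 0.11.

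Of 34 other complement genes 30 were measured in adipose tissue, with 2 higher, 4 lower and a median of -0.10. Colec10, a collectin that starts the lectin pathway, gave 1.90, and Cd55, which dismantles convertases on cell surfaces, 1.00. Among the lower ones, Vtn, vitronectin, gave -1.84, Cfd, factor D, which cleaves factor B, -1.70, and Clu, clusterin, an inhibitor of the terminal complex, -1.24. Cfd was at 17.03 in the high-fat pool, against 18.73 in the normal-diet pool. Beside Cfd, C3 was lower in the high-fat adipose pool (-1.15), while Cfb (0.47) and Cfp (-0.32) were not called. With median centring the C3 ratio turned to 0.0753 and Cfb became higher, at 1.62. These genes were not tested as a set. In liver 30 were measured with none called and a median of 0.07.

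Within liver the bright genes leaned upward as a whole. The median ratio was 0.61 over the 50 measured genes whose log2 intensity, averaged over both channels, was between 17 and 18. It was 0.26 over 107 genes between 16 and 17, and 0.05 over 215 genes between 15 and 16. C3, at 0.56, falls in the brightest of these ranges and lies below its median of 0.61. Against a running median, whose window is wide at this end, C3 lay 0.31 higher and C4b 0.22 higher. By the same measure Fgg gave -0.33 and Fgb -0.23, while C8b and Fga, which are less bright, kept 0.56 and -0.52.

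**Figure D4:**
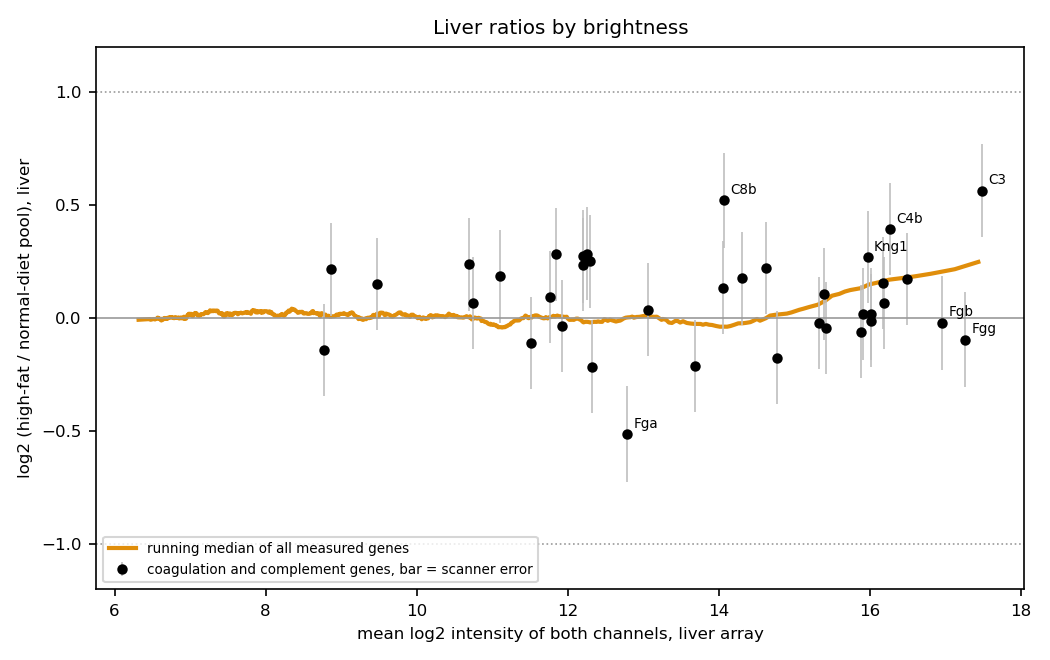
Liver log2 ratio of the 38 genes against their mean log2 intensity, with the scanner's error as bars and the running median of all measured genes as a line. The line climbs above 0 among the brightest genes, where C3 (0.56) and C4b (0.39) lie above it and Fgg (-0.10) and Fgb (-0.02) below.

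Where genes had several probes, the spread between probes was in places wide. The plot of single probes shows F10, Kng1 and C8g in adipose tissue, with wide gaps between probes of 1 gene, and Fga in liver. The direction was the same for both measured probes of each of these.

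**Figure D5:**
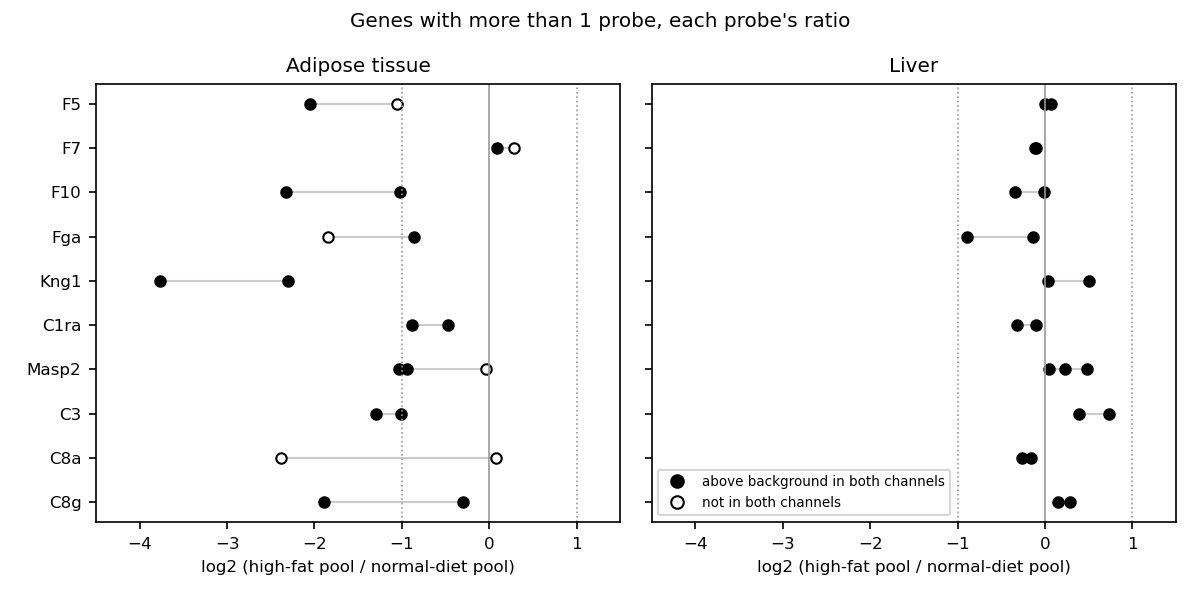
Log2 ratio of each probe for the 10 genes with more than 1 probe, in adipose tissue and in liver. Filled points are probes well above background in both channels, open points are not. In adipose tissue F10 has probes at -2.32 and -1.02, Kng1 at -3.77 and -2.30, and C8g at -1.89 and -0.31.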

How the data were processed

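Per the file headers, the authors scanned 2-colour Agilent arrays with Feature Extraction 11.5.1.1 (the submitters' processing notes name 8.5.1.1) on an mm9 annotation. The deposited files hold intensity per spot and channel, the software's log10 ratio (Cy5 over Cy3) with its error, and its flags, given as other values of 0 or 1. Here median intensities were background-corrected in limma 3.58.1 (R 4.3.3) by normexp with an offset of 50, after local backgrounds marked as outliers (1602 red and 665 green in liver, 1480 and 406 in adipose tissue) were replaced by the channel's median. Loess within arrays gave the ratios and Aquantile the levels. Outlier spots (184 and 213) were left out, and no spot was saturated. Spots, then probes, were averaged on the log2 scale. Probes were named through RefSeq transcripts (GRCm38.p6 table). The loess step was checked on simulated data with equal numbers of raised and lowered probes, all above a set signal. That check covers neither the largest ratios found here, nor dim signals, nor a shift of all genes. Median signals over backgrounds were 127 over 48 (high-fat) and 93 over 28 (normal-diet) in liver, and 274 over 52.5 and 97 over 28 in adipose tissue. With 1 array per tissue no p-value was computed. Genes named outside the 38 were those past 2-fold (up to 8 per tissue and list) and the 3 markers farthest from 0 of the lists discussed, and a few, such as Vwf, F3, Thbd and F2r, were picked after their values were seen. The members and lists were chosen with earlier results of these data known. A few genes of these lists that the naming rule covers are not reported here. Tried alternatives stand in the closing section.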

Additional observations from a re-analysis of the deposited data

Results flagged for a closer look

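C3 differed in direction between the tissues. Its log2 ratio of the high-fat over the normal-diet pool was 0.56 in liver and -1.15 in adipose tissue, each over 2 times the scanner's error. The difference was not tested, since each tissue has 1 array. The liver value lay 0.31 above a running median over brightness but below the median of the 50 genes with a mean log2 intensity of 17 to 18 (0.61). The adipose value less the running median was -1.21.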

How the results depend on the processing

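The count of lower members in adipose tissue, 17, ranged from 16 to 22 over the alternatives, and 0 liver members were lower under each of them. The adipose median of -1.10 became -1.43 with a normexp offset of 10 and -1.89 with the software's own log ratio. With median centring in place of loess it was -0.95. That setting shifted all genes: the median of all genes became 0.32 in liver and 0.69 in adipose tissue, 94.1% of the 2-fold liver genes were then higher (45.9% with loess) and 87.2% of the adipose ones (45.1% with loess). The liver median of the members became 0.75 and 4 of them were higher (C3, C4b, C8b and Kng1). In adipose tissue 3 were higher (C1qa, Cfb and Pros1), the C3 ratio reversed to 0.0753, and the calls of F10 (-0.68) and C8g (-0.51) ended. The cause was not tested. Relative to all genes the adipose median of the members was then -1.64. Fga, C9, F9, F11 and Masp2 were lower in adipose tissue under 1 or more alternatives, and liver C3 ranged from 0.11 to 1.45. Of all liver genes 138 were higher and 156 lower by the software's ratio, and 20 and 35 with local backgrounds as deposited, beside 67 and 79. In adipose tissue the software's ratio gave 901 and 1230, beside 605 and 735. Over all members and alternatives 526 values moved by no more than the gene's scanner error, 112 moved further, and C3 was the 1 called value that changed sign. Counting uncalled values too, median centring turned the sign for 7 of 33 adipose and 13 of 38 liver members, and other alternatives for 1 and 8. Matching by a gene name column was not run, since the files hold none. No paired analysis was possible because each group is 1 pool on 1 array. Precision is limited by having 1 array per tissue, and, for dim genes of the high-fat adipose pool, by signal over background.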
